A study of Mus musculus with 9 samples.

Results

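MicroRNAs (miRNAs) of visceral adipose tissue (VAT) were compared with those of brown adipose tissue (BAT) in mice on a high fat diet (HFD). The small RNA table lists 1251 mature miRNAs in 9 libraries. Of these, 343 were above the lowest value of the table in at least 3 of the 9 libraries, whatever the depot, and these 343 are the miRNAs described here. All mice were male C57BL/6J, were 5 to 6 weeks old before a week of acclimation, then received 45% of their energy from fat for 11 weeks and were fasted before the tissue was taken. The 3 VAT libraries came from the epididymal pad and the 3 BAT libraries from the interscapular pad. The 3 libraries of inguinal subcutaneous adipose tissue (SAT) entered the filter, 1 comparison with VAT and the relation to base composition. They also entered the spread in those alternative fits of VAT against BAT that include all depots. No group on a low fat diet is in this table, so that every difference is between depots under HFD. The libraries are called BAT1 to BAT3, VAT1 to VAT3 and SAT1 to SAT3 by the replicate numbers of the sample labels, which do not say whether libraries of the same number came from the same mouse. The p-values therefore measure the spread between libraries.

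A miRNA is a short RNA cut from one arm of a hairpin (the 5p or the 3p arm). It guides a silencing complex to messenger RNAs that match its seed, bases 2 to 8, and lowers their translation and stability. miRNAs with the same seed form a family with largely shared targets, and hairpins that lie close together on a chromosome are often cut from the same primary transcript. BAT burns fat to make heat and shares a developmental origin with skeletal muscle. VAT stores fat and, in obesity, takes up macrophages and other immune cells. In whole tissue, fewer cells of a type and less miRNA per cell cannot be told apart.

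The mature sequences on which the comparison turned are given here from RefSeq (GRCm38), 5′ to 3′, with the seed in capitals. A mature sequence was found for 293 of the 343 miRNAs (85.4%). The first set holds miRNAs linked to brown fat that were lower in VAT.
miR-193b-3p: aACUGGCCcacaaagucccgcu
miR-193b-5p: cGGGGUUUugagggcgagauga
miR-365-1-5p: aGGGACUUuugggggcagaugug
miR-378d: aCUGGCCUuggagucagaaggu
miR-455-3p: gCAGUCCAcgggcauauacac
miR-129-5p: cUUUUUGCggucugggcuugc

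The second set holds miRNAs with some of the largest differences in the other direction, higher in VAT.
miR-223-3p: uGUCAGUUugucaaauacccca
miR-335-3p: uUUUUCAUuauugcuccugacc
miR-340-5p: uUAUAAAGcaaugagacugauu
miR-146b-5p: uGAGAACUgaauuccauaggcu
miR-21a-5p: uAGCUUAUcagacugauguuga
miR-142-5p: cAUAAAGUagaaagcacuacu

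The third set holds pairs that share a seed and yet were called in opposite directions, the first of each pair higher in VAT and the second lower.
miR-193a-3p: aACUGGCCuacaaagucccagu
miR-193b-3p: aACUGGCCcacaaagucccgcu
miR-103-3p: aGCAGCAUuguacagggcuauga
miR-107-3p: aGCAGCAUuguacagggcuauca
miR-99a-5p: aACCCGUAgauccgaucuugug
miR-99b-5p: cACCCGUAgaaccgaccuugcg
miR-25-3p: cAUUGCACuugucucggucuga
miR-92b-3p: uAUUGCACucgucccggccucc
miR-98-5p: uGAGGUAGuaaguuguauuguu
let-7b-5p: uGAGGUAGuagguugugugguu

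The fourth set holds miRNAs rich in G and C that were lower in VAT.
miR-5126: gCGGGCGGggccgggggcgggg
miR-2137: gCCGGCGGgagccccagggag
miR-5130: cUGGAGCGcgcgggcgaggcaggc
miR-1199-5p: uCUGAGUCccggucgcgcgg

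All values are the deposited log2 values, and all differences are VAT minus BAT on that log2 scale unless SAT is named. The lowest value, 3.32, is log2 of 10, and a miRNA listed there is called at the floor. Without read counts the sequencing depth is unknown, and precision rests on the 3 libraries per depot. The smallest value above the lowest was 3.36 to 3.62 in the VAT libraries but 4.25 to 4.91 in the BAT libraries. The VAT libraries had 349, 323 and 332 miRNAs above the lowest value and the BAT libraries 268, 273 and 255. The difference of the means was 69.3 (exact permutation test, two-sided p = 0.1, the smallest that 3 against 3 libraries allow). A given rank carries nearly the same value in every library, so that the number above a higher level, and the smallest value of a library, are largely set by the normalization and are not compared.

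Some libraries stood apart by muscle miRNAs. miR-133a-3p, made in skeletal and cardiac muscle, was 10.10, 17.20 and 18.67 in BAT1 to BAT3 and 9.85, 12.59 and 17.20 in VAT1 to VAT3. BAT2, BAT3 and VAT3 were the high libraries for miR-133a-3p, and the depots overlapped. miR-133b-3p followed the same libraries, at 3.32, 9.59 and 10.82 in BAT and 3.32, 4.85 and 9.76 in VAT, and miR-133a-5p did so at 3.32, 7.02 and 9.08 in BAT and 3.32, 3.32 and 7.28 in VAT. The muscle miRNA miR-206-3p did so in BAT only, at 3.32, 8.17 and 8.23. In VAT it was 3.32, 3.32 and 3.63, with VAT3 near the floor. Of the 9 muscle miRNAs listed, 5 were tested and only miR-486-5p, which red cells and muscle share, was called. The sum of the list was 17.68 to 19.27 in BAT and 14.99 to 17.46 in VAT, with miR-1a-3p, miR-208a-3p, miR-208b-3p and miR-499-5p below the filter. In BAT1 and VAT1, which hold the low ends, the sum was nearly that of miR-486-5p alone, with miR-133a-3p at 10.10 and 9.85. The part of muscle RNA in other differences was not tested, since without BAT2, BAT3 and VAT3 only BAT1 is left in BAT.

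Limma's moderated test called 227 of the 343 miRNAs at a Benjamini-Hochberg adjusted p under 0.05 (66.2%), 135 higher in VAT (39.4%) and 92 lower (26.8%). The median of all 343 differences was 0.40, and that of the called miRNAs 2.06 among those higher and -2.65 among those lower. Of the called miRNAs, 201 differed by more than 1 and 131 by more than 2. Every library of one depot was above every library of the other for 247 miRNAs (72%), among them 226 of the 227 called, with miR-25-5p as the exception. A fit without BAT2, BAT3 and VAT3 sets BAT1 alone against VAT1 and VAT2 and takes much of its spread from SAT. Its calls are therefore not given. The 95% interval of a difference reached 0.84 to either side at the median over the 343 miRNAs.

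**Figure D1:**
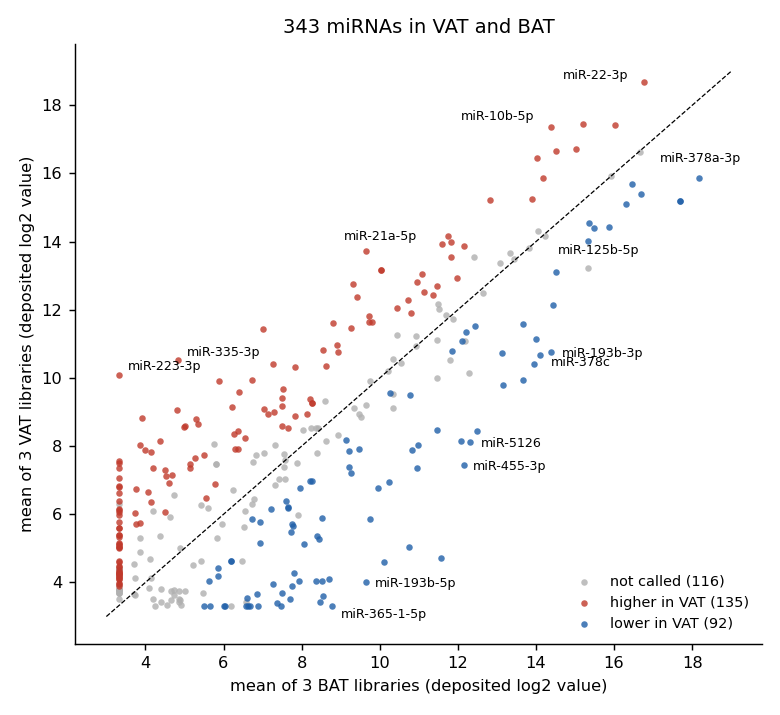
Mean deposited log2 value of 343 miRNAs in the 3 BAT libraries (x axis) and the 3 VAT libraries (y axis), with equality as a dashed line. Red points (135) were called higher in VAT, blue points (92) lower and grey points (116) were not called, and the column at the left holds miRNAs at the floor in the 3 BAT libraries.

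miRNAs linked to brown fat were lower in VAT. Of 21 listed, 18 were tested, 13 were lower in VAT and none was higher. Among the 13, miR-365-1-5p and miR-378b passed the filter through BAT alone, which set their direction. They remain in the counts and the median of the list. Over all tested miRNAs 26.8% were lower and 39.4% higher. The median difference of the list was -3.40 against 0.40 over all tested miRNAs.
miR-193b and miR-365 are cut from hairpins near each other on chromosome 16 (GRCm38, chr16:13449523-13449601 and chr16:13453840-13453926, plus strand, in no annotated gene on that strand), and have been described as promoters of the brown fat programme. miR-193b-3p, the more abundant arm, was 15.16, 14.41 and 13.56 in BAT and 10.65, 11.21 and 10.43 in VAT, a difference of -3.61 ± 0.46 (SE, n = 3 libraries per depot, limma adjusted p = 0.000865). Every BAT library was above every VAT library. The other arm, miR-193b-5p, was 10.23, 9.10 and 9.62 in BAT and 3.63, 4.40 and 4.02 in VAT, close to the lowest value, and differed by -5.63 ± 0.37 (limma adjusted p = 0.000207). miR-365-1-5p was 9.18, 8.40 and 8.75 in BAT and at the lowest value in the 3 VAT libraries, at least 43.9-fold lower. The miR-365-3p arm, which the 2 miR-365 hairpins share, was 12.81, 12.65 and 11.05 in BAT and 11.05, 11.05 and 11.18 in VAT. It was near the VAT level in BAT3 alone and was not called (-1.08, 95% interval -2.28 to 0.12).

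The miR-378 family, whose miR-378a hairpin lies in the gene of the mitochondrial coactivator Ppargc1b, was lower in VAT throughout. miR-378a-3p held the top rank of BAT, at 18.67, 18.67 and 17.20, and the rank 10 of VAT, at 15.56, 16.18 and 15.87. It differed by -2.32 ± 0.46 (limma adjusted p = 0.00556). miR-378c was 14.18, 14.11 and 14.02 in BAT against 10.13, 10.79 and 11.12 in VAT, and miR-378d was 10.18, 10.02 and 10.15 against 3.63, 4.97 and 5.22. The BAT libraries agreed within 0.2 for both while the VAT libraries spread further, and the depots stayed apart. miR-378b was 5.57 to 6.4 in the BAT libraries and at the floor in VAT, at least 6.48-fold lower. The names of miR-378b, miR-378c and miR-378d denote near-identical sequences, and reads with several places were shared between them in proportion, so that the members are not independent.

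miR-455-3p, described as a factor of brown adipogenesis, was 12.45, 12.59 and 11.40 in BAT and 7.35, 8.70 and 6.30 in VAT (-4.70 ± 0.66, limma adjusted p = 0.00138). miR-129-5p was 8.98, 8.53 and 8.6 in BAT and 4.16, 4.64 and 3.52 in VAT, a difference of -4.60 ± 0.34. Both were clearly separated, miR-455-3p with the wider spread. miR-30c-5p, at 15.56, 15.47 and 15.47 in BAT and 14.31, 14.41 and 14.52 in VAT, differed by only -1.09 ± 0.20, yet the libraries of each depot lay close together. The members not called were miR-365-3p, miR-182-5p (-1.26), miR-183-5p (0.92), miR-203-3p (0.14) and miR-30b-5p (0.83).

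The list of miRNAs reported to repress browning was mixed. Of 8 tested, 4 were higher in VAT and none was lower, with a median of 0.51. The share higher over all tested miRNAs was 39.4%. miR-27b-3p, which targets regulators of the brown fat programme, was 13.84, 13.94 and 13.94 in BAT and 15.30, 15.02 and 15.47 in VAT (1.35 ± 0.22, limma adjusted p = 0.00242). miR-27a-3p was 1.08 higher, miR-93-5p 1.62 higher and miR-34a-5p 1.17 higher. Those not called included miR-125b-5p, at 14.52, 14.05 and 14.11 in BAT and 14.18, 14.24 and 14.05 in VAT, and the muscle miRNAs miR-133a-3p and miR-133b-3p.

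**Figure D2:**
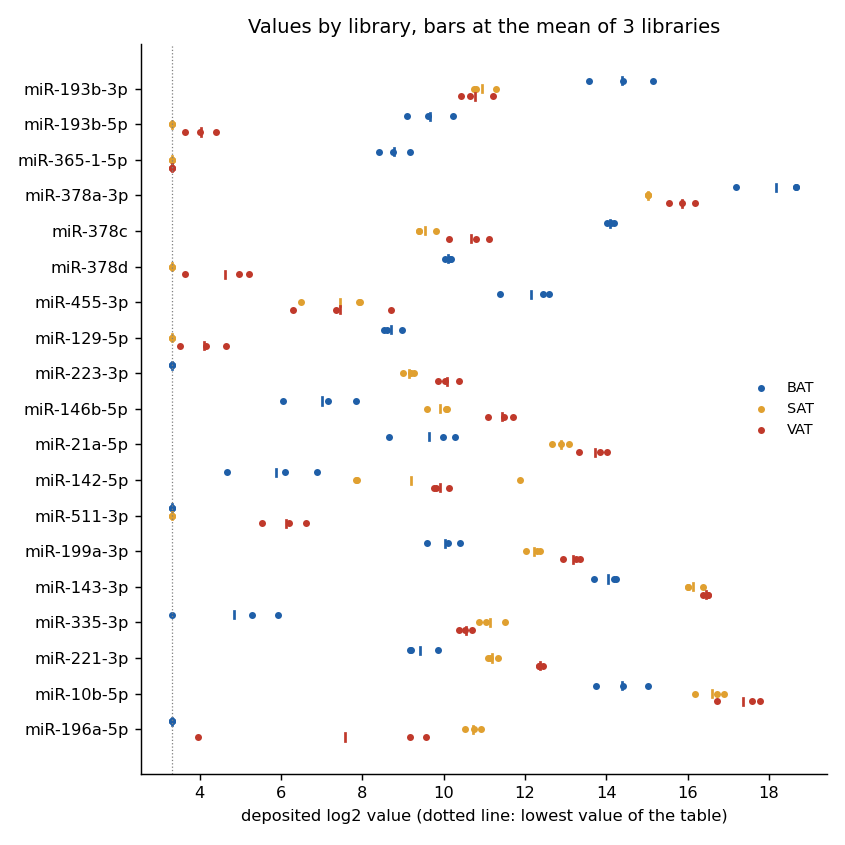
Deposited log2 values of 19 miRNAs, 1 point per library, for BAT (blue), SAT (yellow) and VAT (red), with a bar at each mean of 3 libraries and a dotted line at the lowest value, 3.32. The 8 miRNAs at the top are higher in every BAT library than in every VAT library, the 11 below are higher in every VAT library, and the VAT libraries of miR-196a-5p are split.

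miRNAs of myeloid cells were higher in VAT. Of 15 listed, 13 were tested, 11 were higher and none was lower, with a median difference of 2.79. That median is the value of miR-511-3p, which passed the filter through VAT alone, so that its direction was set by the filter. The share higher over all tested miRNAs was 39.4%. The sum of the list was 14.29 to 14.66 in the VAT libraries and 11.14 to 11.44 in the BAT libraries. Adipocytes and other cells also make several of these, such as miR-21a and miR-132.
miR-223-3p, made almost only in granulocytes and macrophages, was at the lowest value in all BAT libraries and at 10.38, 10.02 and 9.85 in VAT, at least 109-fold higher. Its hairpin lies on the X chromosome (GRCm38, chrX:96242817-96242926, plus strand, in an exon of the non-coding F630028O10Rik). miR-142-5p, a marker of blood cells of all kinds, was 6.89, 4.66 and 6.10 in BAT and 9.76, 10.13 and 9.80 in VAT (4.01 ± 0.56, limma adjusted p = 0.00138). The VAT libraries lay within 0.4 of each other and the BAT libraries spread over 2.22. Its partner arm miR-142-3p was at the floor in BAT and at 4.46, 4.97 and 4.02 in VAT, values in or near the range that the BAT libraries do not hold.

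miR-146b-5p, which limits inflammatory signalling, was 7.15, 7.84 and 6.04 in BAT and 11.48, 11.10 and 11.70 in VAT (4.41 ± 0.49, limma adjusted p = 0.000518). Its paralogue miR-146a-5p differed by 3.19 and shares its seed. miR-21a-5p was 9.97, 8.65 and 10.29 in BAT and 13.84, 13.32 and 14.02 in VAT, and its partner arm miR-21a-3p was at the floor in BAT and at 7.70, 7.51 and 6.85 in VAT. Both arms were higher in VAT, by 4.09 ± 0.48 and 4.03 ± 0.28. miR-511-3p comes from an intron of Mrc1, the mannose receptor gene of tissue macrophages. It was at the floor in the BAT and the SAT libraries and at 6.62, 5.53 and 6.19 in VAT, at least 6.92-fold higher than in BAT. It thus passed the filter through VAT alone. miR-511-5p was 4.92, 5.24 and 4.92 in VAT and at the lowest value in BAT. miR-342-3p was higher by 1.83 ± 0.34, while miR-132-3p (0.72) and miR-212-3p (1.91) were not called. With values under 40 before log2 set to 40, 7 of the 13 were called higher.

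Lymphoid miRNAs had no common direction. Of 5 tested, miR-181d-5p was higher by 1.61 and miR-150-5p, a miRNA of mature lymphocytes, was lower, at 14.75, 14.52 and 14.31 in BAT and 12.74, 14.11 and 12.50 in VAT (-1.41 ± 0.46, limma adjusted p = 0.0358). VAT2 lay within 0.2 of the lowest BAT library, and the call was lost in 11 of the alternatives. The list had a median of -0.04.

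miRNAs of fibroblasts and smooth muscle were higher in VAT. All 10 listed were tested, 8 were higher and none was lower, with a median of 2.40. Over all tested miRNAs 39.4% were higher. miR-199a-3p, with which miR-199b-3p shares every value and every base, was 9.58, 10.10 and 10.41 in BAT and 13.25, 12.94 and 13.36 in VAT (3.15 ± 0.29, limma adjusted p = 0.000316). miR-143-3p was 14.24, 14.18 and 13.69 in BAT and 16.38, 16.51 and 16.51 in VAT, and rose from rank 27 to rank 8. miR-145a-3p, from the hairpin beside miR-143, was 3.32, 4.92 and 4.91 in BAT and 8.35, 7.71 and 8.37 in VAT. The more abundant arm of that hairpin, miR-145a-5p, was 13.51, 13.74 and 13.09 in BAT and 13.40, 13.94 and 13.09 in VAT. The latter differed by 0.03 (95% interval -0.74 to 0.80) and the former by 3.76 ± 0.50, so that 2 arms of 1 hairpin behaved differently. The remaining member not called was miR-214-3p (-0.11).

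Both arms of miR-126, the miRNA of endothelial cells, were higher in VAT. miR-126-3p was 11.29, 11.60 and 10.34 in BAT and 13.09, 13.09 and 12.98 in VAT (1.98 ± 0.36, limma adjusted p = 0.00376), and miR-126-5p differed by 1.10 ± 0.28. The red cell miRNAs miR-451a (2.21 ± 0.32) and miR-144-5p (1.32 ± 0.19) were also higher, but of this list none was higher and 1 was lower after a line on G+C content was subtracted (given with the base composition). miR-144-5p was at the floor in BAT and SAT and passed the filter through VAT alone, which set its direction. miR-451a was 9.23, 9.71 and 8.82 in BAT and 11.18, 11.81 and 11.41 in VAT, without overlap. By contrast, miR-486-5p, the other miRNA of red cells and muscle, was 17.68 in each BAT library and 14.95, 15.78 and 14.81 in VAT (-2.49 ± 0.31). Its values are identical to those of miR-3107-5p.

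Several of the miRNAs with the largest rises belonged to none of these lists. miR-335-3p comes from an intron of Mest (GRCm38, chr6:30741299-30741396, plus strand), an imprinted gene linked to fat cell enlargement, and was 3.32, 5.92 and 5.28 in BAT and 10.53, 10.38 and 10.70 in VAT (5.70 ± 0.66, limma adjusted p = 0.000621). Its partner arm miR-335-5p was at the floor in BAT and at 5.96, 5.67 and 6.34 in VAT. miR-340-5p, from an intron of Rnf130, was 3.32, 3.32 and 5.09 in BAT and 8.67, 8.6 and 9.21 in VAT. miR-224-5p, whose hairpin is intronic in Gabre, was at the floor in BAT and at 8.11, 7.09 and 7.32 in VAT, at least 18.2-fold higher. In all 4 the VAT libraries lay within 1.1 of each other and far above BAT.

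miR-708-5p was 6.19, 4.92 and 3.32 in BAT and 8.94, 8.98 and 9.25 in VAT (4.25 ± 0.70). miR-298-5p was 3.32, 3.32 and 4.91 in BAT and 8.25, 7.83 and 8.04 in VAT (4.19 ± 0.48). miR-34c-5p, of the family induced by p53, was 4.57, 4.51 and 3.32 in BAT and 7.77, 7.85 and 7.85 in VAT (3.69 ± 0.38). For these as well each VAT library was above each BAT library.
miR-152-3p, from an intron of Copz2, was at the floor in BAT and at 6.55, 7.0 and 7.65 in VAT. The miR-221 and miR-222 hairpins lie side by side on the X chromosome, and miR-221-3p was 9.21, 9.85 and 9.16 in BAT and 12.45, 12.34 and 12.34 in VAT (2.97 ± 0.26, limma adjusted p = 0.000287). miR-222-3p, which has the same seed, differed by 1.57 ± 0.26, and miR-221-5p by 3.90 ± 0.63. All arms of this pair that were tested were higher in VAT.

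miRNAs within the Hox gene clusters, which mark position along the body axis, were higher in VAT for 4 of 6 tested, with none lower and a median of 1.99, beside 39.4% higher over all tested miRNAs. miR-10b-5p, from an intron of Hoxd3 and Hoxd4, was 14.41, 15.02 and 13.74 in BAT and 17.58, 16.72 and 17.77 in VAT (2.97 ± 0.44, limma adjusted p = 0.00164). miR-10a-5p differed by 2.15 ± 0.47 and has the same seed. miR-196a-5p was at the lowest value in all BAT libraries and at 3.96, 9.57 and 9.16 in VAT, so that VAT1 lay near BAT and the other libraries far above. Its difference of 4.24 ± 1.46 (limma adjusted p = 0.0409) was 6.04 without VAT1, and its adjusted p was 0.144 without VAT2 and 0.16 without VAT3. miR-196b-5p repeated the split, at 3.32 in VAT1 and 8.16 and 8.21 in VAT2 and VAT3, with BAT3 at 7.55, and was not called. miR-615-3p (-0.44) was not called either. Of the 6, 2 were called with values under 40 before log2 set to 40 and 2 after a line on G+C content was subtracted.

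Lists tied to insulin action and growth went in both directions. Of the 5 miRNAs linked to insulin sensitivity, 3 were higher, 1 was lower and miR-29a-3p (0.33) was not called. Over all tested miRNAs 39.4% were higher and 26.8% lower. miR-29b-3p was at the floor in BAT and at 6.55, 6.03 and 6.63 in VAT, and miR-29c-3p was 5.72, 3.32 and 6.04 against 8.31, 8.55 and 8.92. The 3 share a seed, and the abundant member was the one that did not pass.
Of 9 members of the miR-17-92 and miR-106b-25 clusters, which promote proliferation, 4 were higher and 1 was lower, with a median of 0.65. The share higher was near the 39.4% over all tested miRNAs, of which 26.8% were lower. The counts higher and lower were 2 and 2 with values under 40 before log2 set to 40. They were 3 and 3 after a line on G+C content was subtracted. miR-92a-3p was 15.87, 15.70 and 16.02 in BAT and 14.41, 14.75 and 14.18 in VAT (-1.42 ± 0.25, limma adjusted p = 0.003). It was lower while miR-17-5p, from the cluster on chromosome 14 that also holds a miR-92a hairpin, was 2.79 higher.

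Lists for other tissues had few members. Of the liver and gut miRNAs, miR-122-5p, the main miRNA of liver, was 8.98, 6.59 and 10.08 in BAT and 3.32, 4.14 and 3.32 in VAT (-4.96 ± 0.88), and miR-194-5p was lower by 1.19 on the log2 scale, while miR-192-5p, at 12.12, 9.80 and 12.50 in BAT, was not called (-1.47). The call of miR-194-5p was lost in several alternatives, among them 5 of the 6 with a library left out. With values under 40 before log2 set to 40 none of the 3 was called. Of the neuronal miRNAs, 2 were tested, of which miR-138-5p was higher (3.18 ± 0.76) and miR-128-3p was not called (-0.60). Of the epithelial miRNAs, miR-205-5p was at the floor in BAT and at 3.63, 5.24 and 10.02 in VAT and miR-200b-3p at 3.85, 3.32 and 6.12 in VAT. Both were highest in VAT3 and neither was called. Of the 80 miRNAs of the Sfmbt2 families, 1 passed the filter, miR-467d-5p, and it was not called (-1.41). The 8 miRNAs that the study linked to the unfolded protein response, a list chosen on these samples and no independent evidence, had 5 higher and 3 lower.

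The most abundant miRNAs were partly exchanged. Of the 10 with the highest mean in VAT and the 10 in BAT, 5 were in both groups. miR-22-3p was highest in VAT, at 18.67 in each library, and rank 4 in BAT, at 16.72, 16.90 and 16.72 (1.90 ± 0.20, limma adjusted p = 0.000441). miR-26a-5p was rank 2 in VAT, at 17.20, 17.58 and 17.58, and rank 16 in BAT, at 15.30, 15.56 and 14.75. The top miRNA has the same value in every library, and differences among the most abundant miRNAs are differences in rank. miR-181a-5p was rank 7 in VAT and rank 6 in BAT (-0.04).

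Members of 1 seed family did not always move together. Among the tested miRNAs with a sequence, counting rows with identical values only 1 time, 32 seeds had at least 2 members, 86 in all. Every member was higher in VAT in 13 of these families and lower in 2, and in 7 families members were called in both directions. The family of let-7a-1-3p and let-7b-3p is among the 7 only through let-7a-1-3p, whose direction the filter set (given below). Over all tested miRNAs 39.4% were higher and 26.8% lower, and the counts were not tested against these shares.
miR-193a-3p and miR-193b-3p differ at 3 bases outside the seed (U9C, A20G and G21C, counted from the 5′ end, the miR-193a base first). miR-193a-3p was 6.89, 6.04 and 5.76 in BAT and 9.62, 9.35 and 8.50 in VAT (2.93 ± 0.43, limma adjusted p = 0.00162), and miR-193b-3p was lower as given above. The 2 miRNAs, which come from chromosomes 11 and 16, thus had opposite orders with no overlap in either. In BAT, miR-193b-3p had the higher value in every library, and in VAT it was still above miR-193a-3p, by a smaller margin.

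miR-103-3p and miR-107-3p differ only by G22C, and come from introns of genes for pantothenate kinases, Pank2 and Pank3 for miR-103 and Pank1 for miR-107. miR-103-3p was 12.07, 12.09 and 11.34 in BAT and 13.51, 13.56 and 13.56 in VAT (1.71 ± 0.28, limma adjusted p = 0.00239), and miR-107-3p was 11.21, 11.29 and 9.85 against 9.27, 9.74 and 9.49 (-1.28 ± 0.44, limma adjusted p = 0.0397). Both orders held in every library, with BAT3 of miR-107-3p only 0.11 above VAT2. The call of miR-107-3p was lost in 10 alternatives, and reads that end before base 22 fit both miRNAs.
Of 9 let-7 family members, 7 were higher in VAT, beside 39.4% over all tested miRNAs. In this family let-7b-5p was lower and let-7d-5p did not differ beyond its interval (-0.02). The largest rise was that of miR-98-5p, at 8.04, 6.92 and 8.52 in BAT and 10.43, 9.93 and 10.61 in VAT (2.50 ± 0.46). let-7b-5p, which differs from miR-98-5p by A11G, A17G and U19G, was 15.47, 14.88 and 15.70 in BAT and 14.75, 14.52 and 14.41 in VAT (-0.79 ± 0.29, limma adjusted p = 0.0469). The gap between the depots was 0.14 for let-7b-5p and 1.41 for miR-98-5p, and the let-7b-5p call was lost in 11 alternatives.

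miR-99a-5p was higher (1.93 ± 0.31) and miR-99b-5p, which differs by A1C, U11A, U16C and U21C, was lower, at 16.90, 16.18 and 15.87 in BAT and 15.16, 15.16 and 15.02 in VAT (-1.20 ± 0.31, limma adjusted p = 0.0161). miR-25-3p was higher (0.96 ± 0.32) while miR-92b-3p, at 6 differing bases, was lower (-1.84 ± 0.22). miR-30a-5p was 14.05, 14.31 and 14.18 in BAT and 16.02, 15.56 and 16.02 in VAT (1.68 ± 0.24), opposite to miR-30c-5p. Of the let-7 passenger arms, let-7b-3p was lower (-2.05 ± 0.20) and let-7a-1-3p, at the floor in BAT and at 4.31, 3.62 and 4.59 in VAT, was higher within the range that the BAT libraries do not hold. let-7a-1-3p was at the floor in SAT as well and passed the filter through VAT alone, which set its direction.

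**Figure D3:**
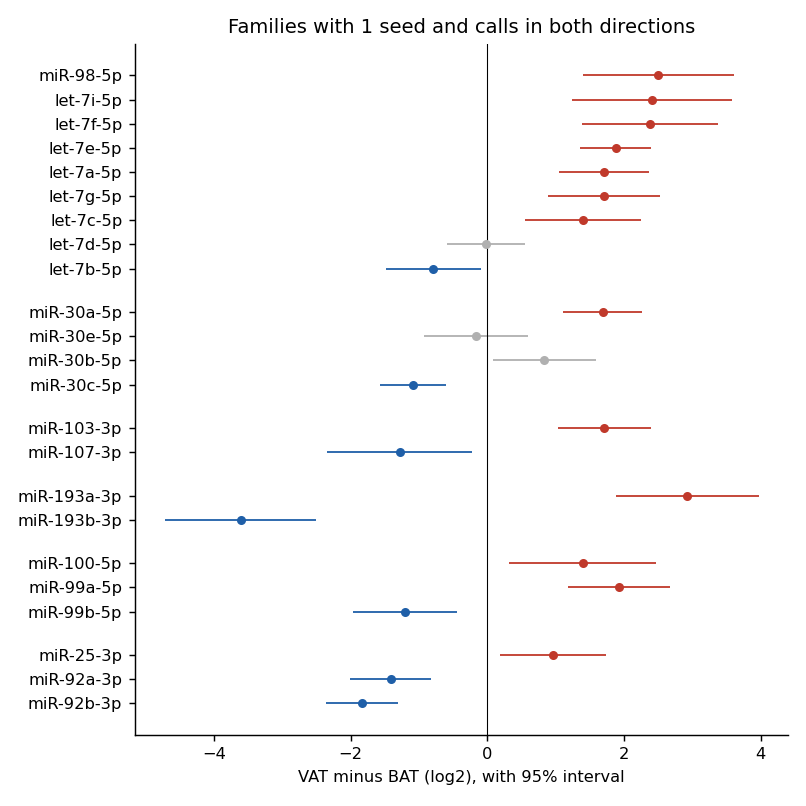
VAT minus BAT difference on the log2 scale with its 95% interval from limma (3 libraries per depot) for members of 6 seed families, red where called higher in VAT, blue where lower and grey where not called. Each family holds members on both sides of 0, from -3.61 for miR-193b-3p to 2.93 for miR-193a-3p.

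The arms of 1 hairpin diverged in some cases. Both arms were tested for 84 hairpins. Both were higher in VAT in 23 and both lower in 8. Only 1 was called in 33 and neither in 11, and in 9 the arms were called in opposite directions. With 39.4% of all tested miRNAs higher and 26.8% lower, unrelated miRNAs would also be called in opposite directions. Whether arms of 1 hairpin differ in this from unrelated miRNAs was not tested. The median absolute difference between the arms was 1.26, and Pearson's r between them was 0.49 over the 84 hairpins, a description, since hairpins of a cluster are not independent. The 9 hairpins were let-7e, miR-1843b, miR-193a, miR-25, miR-27a, miR-30d, miR-350, miR-93 and miR-99b.
miR-1843b-5p was 7.99, 7.70 and 6.83 in BAT and 9.49, 9.31 and 9.42 in VAT (1.90 ± 0.34), while miR-1843b-3p was 10.93, 10.34 and 11.60 against 7.57, 7.57 and 6.94 (-3.60 ± 0.39, limma adjusted p = 0.000481). The more abundant arm was thus the 3p arm in every BAT library and the 5p arm in every VAT library. The order of the arms also turned for miR-193a, where miR-193a-5p was 8.31, 7.53 and 7.44 in BAT and 5.96, 5.6 and 5.57 in VAT (-2.05 ± 0.31), above miR-193a-3p in BAT and below it in VAT.

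let-7e-5p was 11.10, 10.80 and 10.93 in BAT and 12.98, 12.74 and 12.74 in VAT (1.88 ± 0.22), and let-7e-3p was 8.09, 7.84 and 7.0 against 6.42, 6.19 and 5.94 (-1.46 ± 0.35). The 5p arm stayed the more abundant in both depots. miR-350-3p was at the floor in BAT and at 7.35, 6.35 and 6.68 in VAT, with miR-350-5p lower by 1.26 on the log2 scale. miR-99b-3p (2.31), miR-93-5p (1.62), miR-30d-3p (1.79), miR-27a-3p (1.08) and miR-25-3p (0.96) were higher, and their partner arms were lower by 0.79 to 1.77 on the log2 scale. The call was lost in 13 alternatives for miR-25-5p, in 11 for miR-25-3p and miR-93-3p, in 9 for miR-350-5p, in 8 for miR-27a-5p, in 7 for miR-99b-3p and in 6 for miR-27a-3p, and in fewer for the other arms. miR-99b-5p turned to 0.26 with the line on G+C content subtracted.

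**Figure D4:**
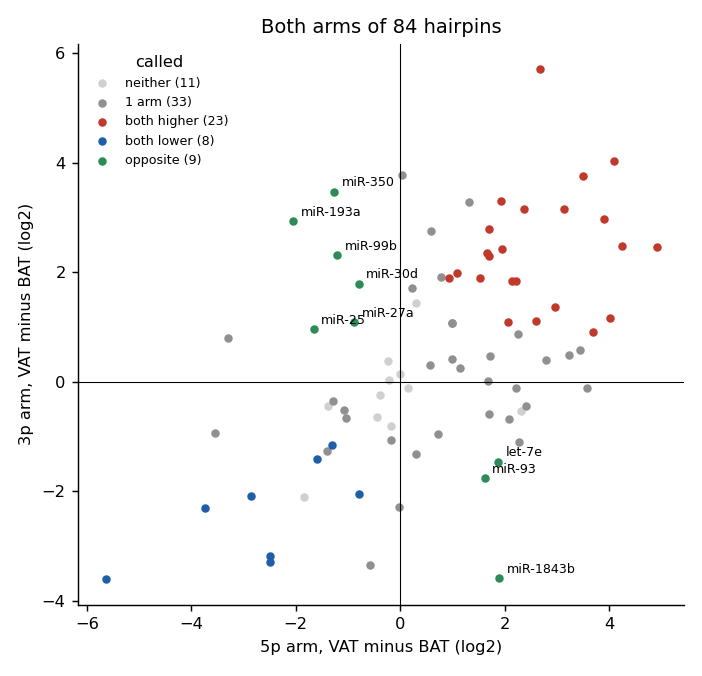
VAT minus BAT difference on the log2 scale of the 5p arm (x axis) and the 3p arm (y axis) of 84 hairpins with both arms tested, coloured by which arms were called. The 9 green points in the upper left and lower right quadrants are hairpins whose arms were called in opposite directions.

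Hairpins of 1 strand with gaps of up to 10000 bases formed 32 clusters with tested miRNAs. The called miRNAs were only higher in VAT in 15 clusters and only lower in 4, in 10 they went both ways, and in 3 none was called. These counts were not tested against the 39.4% higher and 26.8% lower over all tested miRNAs. The only-lower clusters included miR-193b with miR-365-1. The cluster of let-7e and miR-125a, within Spaca6 on chromosome 17 (the let-7e hairpin in an intron, that of miR-125a in an exon), had let-7e-5p higher and let-7e-3p, miR-125a-3p and miR-125a-5p lower. The miR-25, miR-93 and miR-106b cluster on chromosome 5 had 2 higher, 2 lower and 2 not called.
Between Dlk1 and Dio3 on chromosome 12, an imprinted region with many miRNA genes, 35 miRNAs were tested, 15 were higher in VAT, 5 were lower and 15 were not called, with a median of 0.85. The share higher was near the 39.4% over all tested miRNAs, while 26.8% of those were lower. The most abundant, miR-127-3p, was 14.31, 14.24 and 13.63 in BAT and 14.52, 14.31 and 14.11 in VAT and did not pass (0.25). miR-411-5p was 9.35, 9.31 and 8.09 in BAT and 11.38, 10.82 and 10.74 in VAT (2.07 ± 0.42).

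The differences followed the base composition of the miRNAs. Over the 293 miRNAs with a sequence, Spearman's rho between the G+C content of the mature sequence and the VAT minus BAT difference was -0.56, and over the 157 that were above the lowest value in all 9 libraries it was -0.61. These are descriptions across miRNAs of the same libraries. Of 37 miRNAs with less than 40% G+C, 29 were higher in VAT and 1 was lower, and of 56 with at least 60%, 5 were higher and 29 were lower. The median difference fell from 1.71 in the former to -1.56 in the latter.
The relation was nearly absent within BAT. Between pairs of BAT libraries rho was at most 0.09 in size, between pairs of SAT libraries at most 0.08, and between pairs of VAT libraries 0.20 to 0.38. For the 9 differences of a VAT from a BAT library it was -0.63 to -0.57. A line was fitted to each library's deviation from the miRNA means over the 9 libraries. Its slope per 10 points of G+C was 0.73, 0.68 and 0.67 in BAT. In SAT it was -0.22, -0.21 and -0.28, and in VAT -0.44, -0.38 and -0.54. The slopes balance out over the 9 libraries by construction, so that their signs are relative and only differences between libraries are read. No library crossed into another depot's range.

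**Figure D5:**
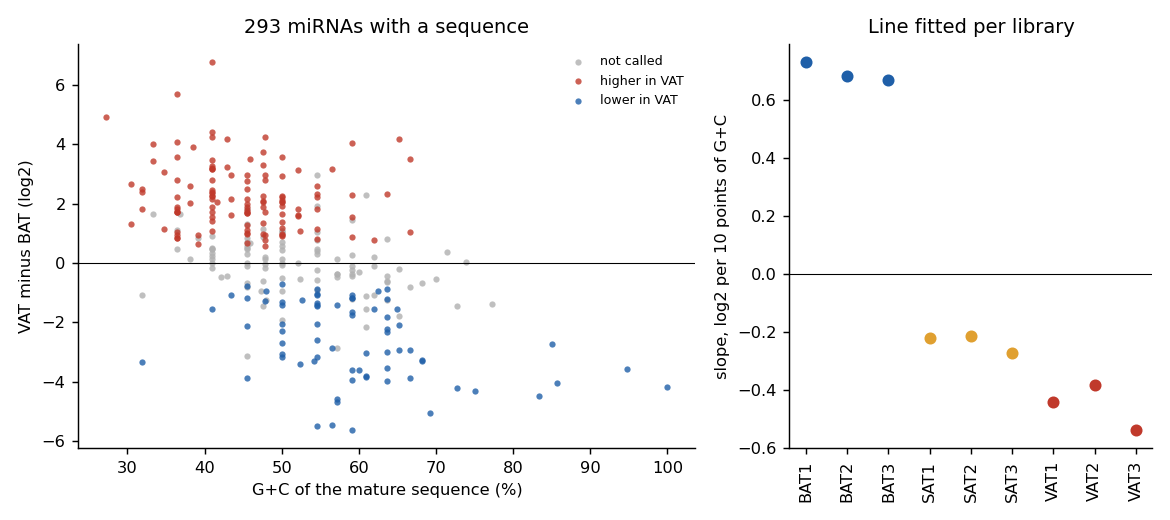
Left, VAT minus BAT difference on the log2 scale against the G+C content of the mature sequence for 293 miRNAs, coloured by call. Right, slope of the line of each library's log2 deviation from the miRNA means on G+C content, in log2 units per 10 points. The slopes are relative to the mean of all libraries, with the 3 BAT libraries above the 6 SAT and VAT libraries.

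Among miRNAs numbered below 1900, the median G+C content was 45.5% for those higher in VAT, 50% for those not called and 56.5% for those lower, with sequences for 80.9% of the last. Over all numbers the check is void for those lower, of which 78.3% have a sequence. The arms of the 9 hairpins with opposite calls had both sequences in 8, of which 7 differed in G+C content, and in all 7 the arm with less was the one higher in VAT. Over all 61 hairpins with arms of different content, the arm with less had the larger VAT minus BAT difference in 42. In 5 of the 7 mixed seed families the lower members were richer in G+C, in the family of miR-103 and miR-107 the content was equal, and in the miR-30 family it was the other way. The family of let-7a-1-3p, whose direction the filter set, is among the 5.

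The size of the differences changed when the line on G+C content was subtracted from each library, an alternative chosen after these values were seen. Of the 193 called miRNAs with a sequence, 132 were still called in the same direction, 83 of them higher and 49 lower, 54 were no longer called and 7 were called the other way. Of these 7, 1 was above the lowest value in all 6 libraries, miR-5126, whose sequence is all G and C. It was 12.65, 11.88 and 12.40 in BAT and 8.37, 8.35 and 7.65 in VAT (-4.18 ± 0.33), and 1.44 ± 0.25 after the subtraction. miR-2137, at 85.7% G+C, went from -4.04 to -0.05 and miR-5130 from -4.48 to -0.76. The subtraction also moves miRNAs that sit at the lowest value, so that a change of direction there is not a measured one.
Brown fat members were still lower in most cases, and blood cell members were divided. miR-193b-5p was -4.70, miR-365-1-5p -4.81, miR-378d -5.09, miR-455-3p -3.98 and miR-129-5p -3.88 after the subtraction, and miR-223-3p was 5.62, miR-146b-5p 3.27, miR-21a-5p 2.42, miR-142-5p 2.0 and miR-511-3p 1.12, all still called. miR-451a fell to 0.54 (limma adjusted p = 0.213) and miR-142-3p was -0.69 (limma adjusted p = 0.126), neither called, and miR-144-5p was called lower (-1.03). Outside these roles, miR-335-3p was 4.03 and still called. By list, 11 of 14 brown fat miRNAs were lower, 10 of 12 myeloid and 5 of 5 fibroblast miRNAs were higher. These counts include miR-365-1-5p, miR-378b and miR-511-3p, whose direction the filter set. In the let-7 list, only 1 of 9 was still higher and 2 were lower. The part of base composition in these differences was not tested further.

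Late-numbered miRNAs made up many of the lower ones. Of 39 tested that were numbered 1900 or above, 24 were lower in VAT and 2 were higher, with a median of -2.88. Over all tested miRNAs 26.8% were lower and 39.4% higher. miR-5105 was 11.41, 11.10 and 12.20 in BAT and 4.65, 5.6 and 3.92 in VAT (-6.85 ± 0.51, limma adjusted p = 0.000207), and miR-6243 was 10.99, 9.52 and 11.75 against 4.87, 6.62 and 3.63. miR-3960 was 7.99, 7.25 and 7.17 in BAT and at the lowest value in VAT. Below that number lay miR-1199-5p, at 8.70, 8.0 and 8.40 against 3.83, 4.40 and 3.92. Without those numbered 1900 or above, 202 of 304 miRNAs were called, 133 higher and 69 lower.

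Between VAT and BAT, detection in only 1 of the depots went both ways. SAT was not part of this count. Among those at the lowest value in BAT, miR-196a-5p and miR-223-3p had SAT means of 10.73 and 9.155. At the lowest value in all BAT libraries and above it in all VAT libraries were 53 miRNAs, of which 43 were called, and the inverse held for 10, all called. Of the 43, 14 had every VAT value under 4.91, the smallest value above the lowest in BAT3, and 13 were still called with values under 40 before log2 set to 40. The 10 found in BAT and not in VAT were miR-365-1-5p, miR-378b, miR-3960, miR-5122, miR-6538, miR-1900, miR-1941-5p, miR-219-1-3p, miR-1196-5p and miR-542-3p, and 2 of them were still called in that way. miR-1196-5p was also above the lowest value in SAT1, at 4.94. Of the filter itself, 38 miRNAs passed with exactly 3 libraries above the lowest value, with a median highest value of 5.86. Another 31 missed with 2, with a median of 4.64. Of the 38, 17 had all 3 in VAT and 9 all 3 in BAT. These passed only through the depot where they are high, so that their direction was set by the filter. They remain in the counts of tested miRNAs.

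Some miRNAs were close to equal. The 5 whose 95% interval reached least far from 0 were miR-30a-3p (0.01), let-7d-5p (-0.02), miR-339-3p (0.03), miR-125b-5p (-0.07) and miR-434-3p (-0.12). miR-30a-3p was 10.70, 10.87 and 11.18 in BAT and 10.87, 10.93 and 10.99 in VAT, fully overlapping, and its partner arm miR-30a-5p was 1.68 higher in VAT. After the line on G+C content was subtracted, 3 of the 5 were called: miR-339-3p at 2.66, let-7d-5p at -1.17 and miR-434-3p at -0.75, while miR-30a-3p and miR-125b-5p were not.

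Against SAT, few of the same miRNAs stood out in VAT. In a limma fit of all 9 libraries, 30 of the 343 miRNAs (8.75%) differed between VAT and SAT, of which 27 were also called between VAT and BAT, and 24 of these differed from SAT by more than 1. Both comparisons use the same VAT libraries. For 17 of the 24, the SAT mean lay between or at those of BAT and VAT. miR-22-3p was 16.72, 17.20 and 17.20 in SAT, near its level in BAT, and 1.64 ± 0.21 higher in VAT than in SAT (limma adjusted p = 0.00603). The count of 27 depended on single libraries, with 4 called without SAT2 and 9 without VAT3.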

How the data were processed

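Small RNA was sequenced from 9 adipose libraries, 3 per depot. The authors mapped reads to miRNA precursors (mouse build mm10 per the labels), retained reads of mature miRNAs, divided multi-mapped reads proportionally, scaled to the usable reads and, per the methods, added 40 counts. The lowest deposited value is log2 of 10, so that the offset in these values is not settled, and bounds and folds of low miRNAs depend on it. The deposited values are log2 values whose ranks carry nearly the same value in every library, as quantile normalization leaves them. No read counts are given.

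The values were used as deposited. VAT and BAT were compared in limma 3.58.1 (R 4.3.3, lmFit and eBayes, two-sided) on 6 libraries without a block, with Benjamini-Hochberg adjustment over the 343 tested miRNAs, and VAT and SAT as a contrast in a fit of 9 libraries. The study named a test without moderation, which was an alternative. In 20 simulated draws, 60 of 343 miRNAs were changed by 2 (log2), all taken from those with a mean above the median. Of these, 84.9% were recovered, and 5.82% of the calls were false. The draws changed fewer miRNAs than the 227 called in the data, and the recovery does not cover miRNAs near the floor. Deviations of same-numbered BAT and VAT libraries correlated positively for numbers 1 and 3 and negatively for number 2 (r = 0.36, -0.17 and 0.27). Pairing required over 0.1 in every pair, so that the numbers were not taken as pairs. The titles carry other numbers, 12, 15 and 20 in BAT and 14, 17 and 20 in VAT, so that this check cannot settle pairing by mouse. VAT1 and SAT1 share the title number 14, and VAT3 and SAT3 share 20. The comparison of VAT with SAT had no block.

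Mature sequences came from RefSeq (GRCm38), with 5 names matched through a later family letter. Host genes came from GENCODE M21. A fold against a depot at the lowest value is a lower bound. Rows of 18 miRNAs formed 9 sets of identical values.

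Named were the 15 largest differences each way without overlap, the 10 most abundant of each depot, up to 4 abundant members of each list and members at the lowest value in 1 depot, arms and seed families called in opposite directions, the 5 narrowest intervals around 0, and called miRNAs that differed from SAT by more than 1. Other names complete a list, hairpin or family and were chosen after their values were seen. The members and lists were chosen with earlier results of these data known. Alternatives were other offsets, filters, scalings, blocks and each library left out. After the data were seen, the subtraction of a line on G+C content, the 3 libraries high in miR-133a-3p left out, 1 row per identical set, and no late-numbered miRNAs were added.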

Additional observations from a re-analysis of the deposited data

Results flagged for a closer look

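The change against BAT differed between VAT and SAT for 24 miRNAs, by the test of VAT against SAT in the 9-library limma fit (adjusted p under 0.05 and a difference over 1). The values here are VAT minus SAT on the log2 scale. Higher in VAT than in SAT were miR-511-3p (2.79), miR-130b-3p (2.08), miR-450a-5p (1.82), miR-22-3p (1.64), miR-222-3p (1.52), miR-15b-3p (1.43), miR-451a (1.38), miR-15a-5p (1.36), miR-144-5p (1.32), miR-152-3p (1.2485), miR-221-3p (1.18), miR-378c (1.14), miR-127-5p (1.14) and miR-379-3p (1.04). Both 3p arms of the miR-221 and miR-222 pair and both red cell miRNAs are among these 14. Lower in VAT than in SAT were miR-335-5p (-2.46), miR-5105 (-2.30), miR-19b-3p (-1.58), miR-301a-3p (-1.57), let-7c-5p (-1.2549), miR-193a-5p (-1.2527), miR-125a-5p (-1.12), let-7e-5p (-1.09), miR-423-3p (-1.06) and let-7a-5p (-1.04). For the 3 let-7 members SAT lay above VAT and VAT above BAT, and for miR-378c SAT lay below VAT and VAT below BAT. miR-335-5p, from the Mest intron, was 8.18, 8.50 and 8.68 in SAT, above each VAT library and with BAT at the lowest value. miR-511-3p, miR-450a-5p, miR-144-5p, miR-127-5p and miR-379-3p were at the lowest value in both SAT and BAT, so that their differences are lower bounds. They passed the filter through VAT alone, which set their direction.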

How the results depend on the processing

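Under the other offsets, filters, scalings and blocks, 119 to 228 miRNAs were called, within 1.5 times the 227 except without a filter on low values (128 of 1251) and with the higher 171 by mean (119, and 121 by the thresholds of the study, against 236). The median difference over all tested moved from 0.40 to 0.12 with quantile normalization of the tested miRNAs, to 0.14 with a further 40 added, to 0 with values under 40 set to 40 or with no filter, and to 0.69 with the lowest value subtracted. In both filters, the number of miRNAs tested differs by construction. With each library left out in turn, 187 (without VAT3) to 236 (without BAT3) were called, and 208 to 249 by the thresholds of the study. With a replicate block by the source-name number, 196 were called, and by the title number 223. The block on the title number rests on 1 shared number, 20, between BAT and VAT. Subtracting the line on G+C content left 167 of 293, against 193 of 293 without it.

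Of the called miRNAs named by the rule, 48 were called under every alternative run on them (20 to 24 each, since the subtraction needs a sequence and filters drop some), 38 lost the call under 1 to 3 and 20 under more than 3. The direction turned with the line subtracted for miR-5126 (1.44), miR-99b-5p (0.26) and, at the lowest value in BAT, let-7a-1-3p (-0.82), miR-142-3p (-0.69), miR-144-5p (-1.03), miR-19b-3p (-0.71), miR-301a-3p (-0.41), miR-379-3p (-0.63) and miR-450a-5p (-0.37). miR-106b-3p (0.81), miR-615-3p (1.02) and miR-29a-3p (-0.82), not called before, turned as well. The cause was not tested. The counts of alternatives here and above include the fit that holds BAT1 as the only BAT library.

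The difference in miRNAs above the lowest value was 62.2 to 75.2 with each library left out. Of the called miRNAs, 27 differed between VAT and SAT, 43 in a fit of those libraries alone and 4 to 23 with each library left out.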
